A study of Mus musculus with 6 samples.

Results

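The genes described here encode the non-collagen core of the basement membrane, namely the laminin chains Lama1, Lama2, Lama4, Lama5, Lamb1, Lamb2 and Lamc1, the nidogens Nid1 and Nid2, and perlecan, the product of Hspg2. They were chosen by symbol and, like the lists below, with earlier results of these data known. Counts of them set beside all genes are therefore descriptive. All 10 genes were found among the 19938 genes tested, each with 1 probe set. The RNA came from embryoid bodies (EBs), floating aggregates of R1 mouse embryonic stem cells, an established line, grown without leukaemia inhibitory factor (Lif) from 35000 cells per ml. EBs that were 4 days old, by the treatment notes (the growth notes give 3 or 4 days), were collected before the addition of retinoic acid (RA), called day 0, or after 3 or 4 days in 2 μM RA, called day 3 and day 4. Each day had 2 samples, each hybridised to 1 Affymetrix Mouse Gene 1.0 ST array, a chip with probes along the whole transcript. EBs kept without RA to the age of the treated ones were not analysed here, and an effect of RA cannot be told apart from one of age. The study describes biological replicates for its sequenced day 0 and day 4 samples, but the array labels do not say whether the 2 samples of a day were grown separately, and p-values therefore rest on a spread between arrays that may be technical.

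A basement membrane is a thin sheet of matrix under epithelia and around muscle, fat and nerve. Laminins are its organisers: each is a cross-shaped trimer of an α, a β and a γ chain, and cells bind it mainly through integrins and dystroglycan. Nidogens link the laminin network to that of collagen IV, and perlecan, a large heparan sulfate proteoglycan, ties in both networks and holds growth factors. In the early embryo and in EBs a basement membrane forms between the outer endoderm and the inner epiblast. Its laminin is built from the products of Lama1 or Lama5 with Lamb1 and Lamc1, and RA has long been used to make embryonal carcinoma cells produce laminin chains.

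Values are log2 intensities as the authors normalised them (Robust Multichip Average, RMA), so a difference of 1 is a 2-fold difference of signal. The 2 arrays of a day correlated at 0.999 across genes at each of the 3 days, against 0.953 to 0.994 between days, and the largest gap between the 2 arrays of a day for any of the 10 genes was 0.20. None of the 10 was undetectable by the study's limits, a mean below 6 and a standard deviation (SD) below 0.3, which 30.2% of all genes met over the 6 arrays. Lama2 came nearest, with 6.17 on 1 day 0 array. All 6 pluripotency markers were lower by day 3 (28.1% of all genes), and Pou5f1, which encodes Oct4, went from 10.24 at day 0 to 6.16 at day 3 and 6.15 at day 4.

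At day 4 the basement membrane genes differed from day 0 in both directions, with falls more frequent than rises. Lama4, Hspg2, Nid1, Lama5, Lama1, Lamb1 and Lamc1 were lower and Lama2, Lamb2 and Nid2 were higher, so that 7 of 10 fell and 3 rose (limma, adjusted p of 0.05 or below). Of all genes tested, 25.6% fell and 25.9% rose in the same comparison. These shares include dim genes, of which the 10 hold none. Among the 14105 genes with a mean of 6 or more on at least 1 day, fitted alone, 70.8% passed, 4935 lower and 5049 higher. The median log2 change of the 10 genes was −0.50, beside 0.00 for all genes. At day 3, 4 were lower (28.1% of all genes), 2 were higher (23.8%) and 4 did not pass. From day 3 to day 4, 7 were lower (12.2% of all genes), 1 was higher (15.8%) and 2 did not pass. The median change over this last day was −0.28, beside 0.05 for all genes. In the comparison of day 4 with day 0, the arrays of the 2 days did not overlap for any of the 10 genes, which held for 73.0% of all genes. Most of the changes were below 2-fold. At day 4 Lama4 and Hspg2 alone passed both the test and a 2-fold change, both downwards (4.61% of all genes; 5.82% upwards), and at day 3 Lama2 alone upwards (5.14%) and Lama4 alone downwards (4.09%). Over the last day 0 of the 10 did so (0.376% of all genes upwards and 0.391% downwards). The zero line depends on the scaling of the arrays. Centring on the array medians over all probe sets moved the median gene of day 4 versus day 0 from 0.00 to 0.11, and centring on the medians over the genes tested moved it to −0.15. For day 4 versus day 0, 50.2% of all calls were rises, and this share was 64.6% and 30.7% with the 2 kinds of centring. For day 4 versus day 3 it was 56.4%, 86.5% and 42.4%, and for day 3 versus day 0 it was 45.9%, 42.5% and 31.4%. With centring over all probe sets 6 of the 10 genes were lower and 3 higher at day 4, and with centring over the genes tested 7 and 2. Changes as small as the shift, such as those of Lamc1, have no settled size. Hspg2, at −1.02 for day 4 versus day 0, lies nearer to the 2-fold limit than the size of the shift. Its place beyond that limit is therefore not settled.

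**Figure D1:**
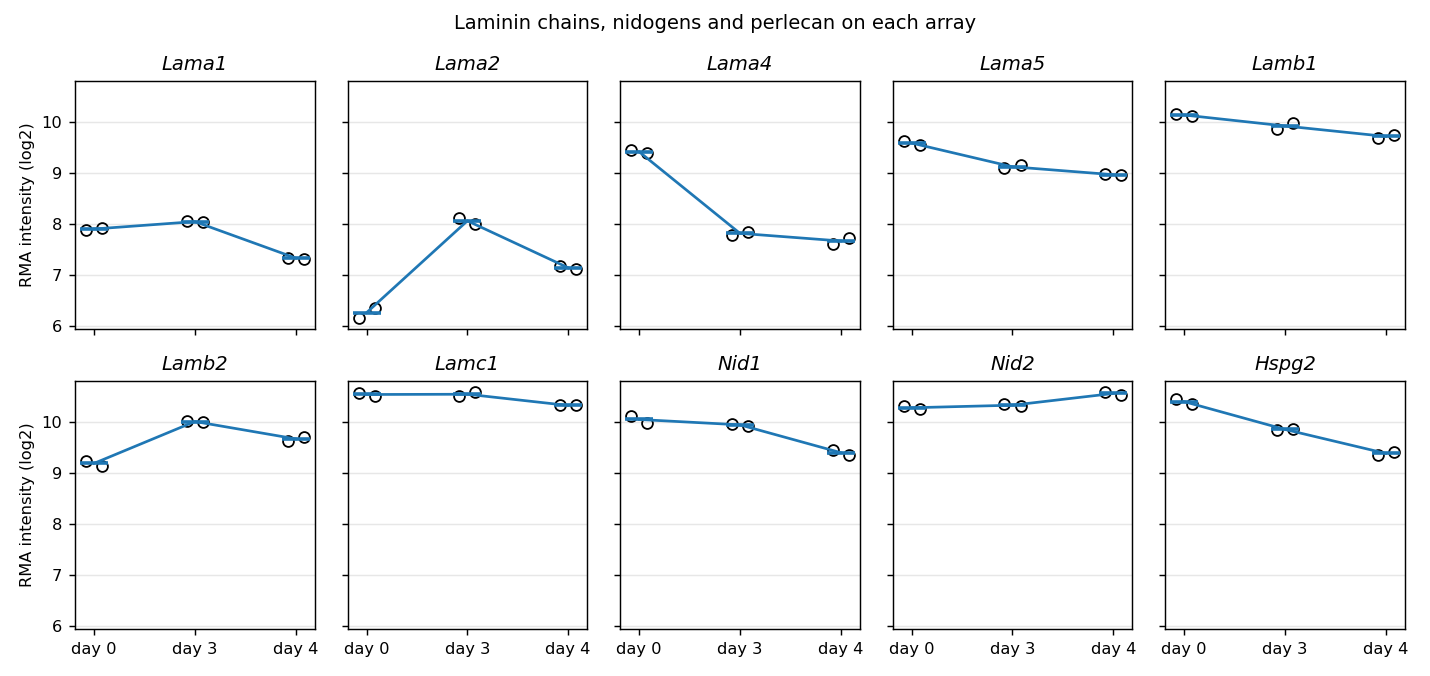
RMA intensity (log2, vertical axis) of the 10 genes on each array at day 0, day 3 and day 4; open circles are the 2 arrays of a day, bars their means, and the line joins the means. Lama2 stood at 6.27, 8.07 and 7.15 and Lama4 at 9.42, 7.82 and 7.68 at the 3 days, and the vertical axis does not start at 0.

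The 4 α chains, which carry the sites that integrins and dystroglycan bind, followed 3 different courses. Lama4 encodes the α4 chain of vessel and mesenchymal basement membranes. Its signal was 9.45 and 9.40 on the day 0 arrays, 7.80 and 7.85 at day 3, then 7.62 and 7.73 at day 4. All later arrays lay more than 1 log2 unit below day 0. The log2 change was −1.60 (SE 0.06) at day 3 and −1.75 (SE 0.06) at day 4, with an adjusted p of 6.22e-07 at day 4 (limma). At day 4 the signal was 0.298 of that at day 0, and 3.59% of all genes had a larger change in either direction. The step from day 3 to day 4 was −0.15 and did not pass (adjusted p = 0.113, limma).

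Lama2 encodes the α2 chain of muscle and nerve basement membranes, the chain that is missing in congenital merosin-deficient muscular dystrophy. Its signal was 6.17 and 6.37 at day 0, 8.13 and 8.01 at day 3, then 7.18 and 7.12 at day 4. It was the dimmest of the 10 at day 0, and the 3 days did not overlap, with day 3 highest and day 4 between. The rise at day 3 was 1.80 (SE 0.08, adjusted p = 2.29e-06, limma), a 3.49-fold signal. RMA compresses differences between dim signals, so this rise may be understated. From day 3 to day 4 it fell by 0.92 on the log2 scale (SE 0.08, adjusted p = 6.19e-04, limma), and 1.07% of all genes had a larger change over that day. At day 4 it was still 0.88 above day 0 (SE 0.08, adjusted p = 6.86e-05, limma).

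Lama1 encodes the α1 chain of the first embryonic laminin. The 6 arrays gave 7.89 and 7.93 at day 0, 8.07 and 8.04 at day 3, then 7.35 and 7.33 at day 4. Day 0 and day 3 lay close together and day 4 stood apart. The difference at day 3 was 0.14 (SE 0.05) and did not pass (adjusted p = 0.0571, limma), though it passed with cyclic loess scaling (0.17, adjusted p = 0.0299) and without genes that were dim on every day (adjusted p = 0.0328). From day 3 to day 4 Lama1 fell by 0.71 on the log2 scale (SE 0.05, adjusted p = 3.51e-04, limma), a change that 2.14% of all genes exceeded. Against day 0 the fall at day 4 was 0.57.

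Lama5 encodes the α5 chain, the most widespread of the adult α chains and one on which stem cells are grown. It read 9.64 and 9.55 at day 0, 9.10 and 9.16 at day 3, then 8.98 and 8.97 at day 4. Most of its fall had taken place by day 3. The change was −0.46 (SE 0.06, adjusted p = 3.66e-04, limma) at day 3 and −0.62 (SE 0.06, adjusted p = 6.80e-05) at day 4. The step between these days, −0.16, did not pass (adjusted p = 0.0792, limma), though it passed with centring over the genes tested (−0.2, adjusted p = 0.0311).

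The β chains moved apart. Lamb1 encodes the β1 chain of the embryonic laminins, and its signal was 10.17 and 10.12 at day 0, 9.87 and 9.99 at day 3, then 9.70 and 9.75 at day 4. Lamb2 encodes the β2 chain of the neuromuscular junction and the kidney glomerulus, and it read 9.24 and 9.15, then 10.02 and 10.01, then 9.63 and 9.72. Lamb1 was highest at day 0 and Lamb2 at day 3, without overlap of the days in either gene. At day 4 the change from day 0 was −0.42 for Lamb1 (SE 0.06, adjusted p = 8.37e-04, limma) and 0.47 for Lamb2 (SE 0.06, adjusted p = 3.84e-04). At day 3 Lamb2 had risen by 0.81 (SE 0.06, adjusted p = 2.52e-05, limma), or 1.76-fold, and on the last day it fell by 0.34 on the log2 scale (adjusted p = 0.00709). The smaller steps of Lamb1 were less firm. The call of its change at day 3 (−0.21, adjusted p = 0.0236, limma) was lost when day 0 replicate 1 (adjusted p = 0.107) or day 3 replicate 1 (0.141) was left out. Its change of −0.21 over the last day (adjusted p = 0.0443) lost its call without any 1 of the 6 arrays (0.059 to 0.202), with the 4 arrays of these 2 days alone (0.0607), with the replicate number as a block (0.0552) and with centring over all probe sets (−0.08, adjusted p = 0.341).

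Lamc1 encodes the γ1 chain, the γ chain of most laminins, and it had the smallest range of the 10 genes. It read 10.58 and 10.51 at day 0, 10.51 and 10.59 at day 3, and 10.33 on both day 4 arrays. Day 0 and day 3 overlapped, with a difference of 0.01 (adjusted p = 0.930, limma). The fall of 0.22 at day 4 against day 0 passed (adjusted p = 0.0149) but lost its call without day 0 replicate 1 (0.0801), without day 4 replicate 1 (0.0558) or replicate 2 (0.0582), and with centring over all probe sets (−0.11, adjusted p = 0.189). The fall against day 3, −0.22 (adjusted p = 0.0259, limma), lost its call without either array of day 3 or of day 4 (adjusted p of 0.0601 to 0.128) and with that centring (−0.09, adjusted p = 0.247).

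The 2 nidogens also parted, and they did so on the last day. Nid1 encodes nidogen-1, which binds the γ1 chain of laminin, and it read 10.13 and 9.98 at day 0, 9.97 and 9.93 at day 3, then 9.45 and 9.36 at day 4. Nid2 encodes nidogen-2, its close relative, and it read 10.31 and 10.26, then 10.36 and 10.31, then 10.59 and 10.54. The day 4 arrays lay below all others for Nid1 and above all others for Nid2. Neither gene passed at day 3 (Nid1 −0.11, adjusted p = 0.222; Nid2 0.05, adjusted p = 0.524, limma), though Nid1 passed with centring over the genes tested (−0.21, adjusted p = 0.0226). From day 3 to day 4 Nid1 fell by 0.54 on the log2 scale (SE 0.07, adjusted p = 0.00193, limma), and 4.56% of all genes had a larger change. Nid2 rose by 0.23 over the same day (SE 0.05, adjusted p = 0.0206), a call that was lost without any 1 of the day 3 and day 4 arrays (0.0579 to 0.100). Against day 0, Nid2 was higher by 0.28 at day 4 (adjusted p = 0.00397, limma), and 0.13 (adjusted p = 0.0620) with centring over the genes tested.

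Perlecan fell in steps. Hspg2 read 10.46 and 10.35 at day 0, 9.85 and 9.87 at day 3, then 9.36 and 9.42 at day 4. The 3 days did not overlap, and each was lower than the one before. The change was −0.55 (SE 0.06, adjusted p = 2.09e-04, limma) over the first 3 days and −0.47 (SE 0.06, adjusted p = 0.00224) over the last day alone. At day 4 the signal was 0.494 of that at day 0, a log2 change of −1.02 (SE 0.06, adjusted p = 7.59e-06, limma).

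**Figure D2:**
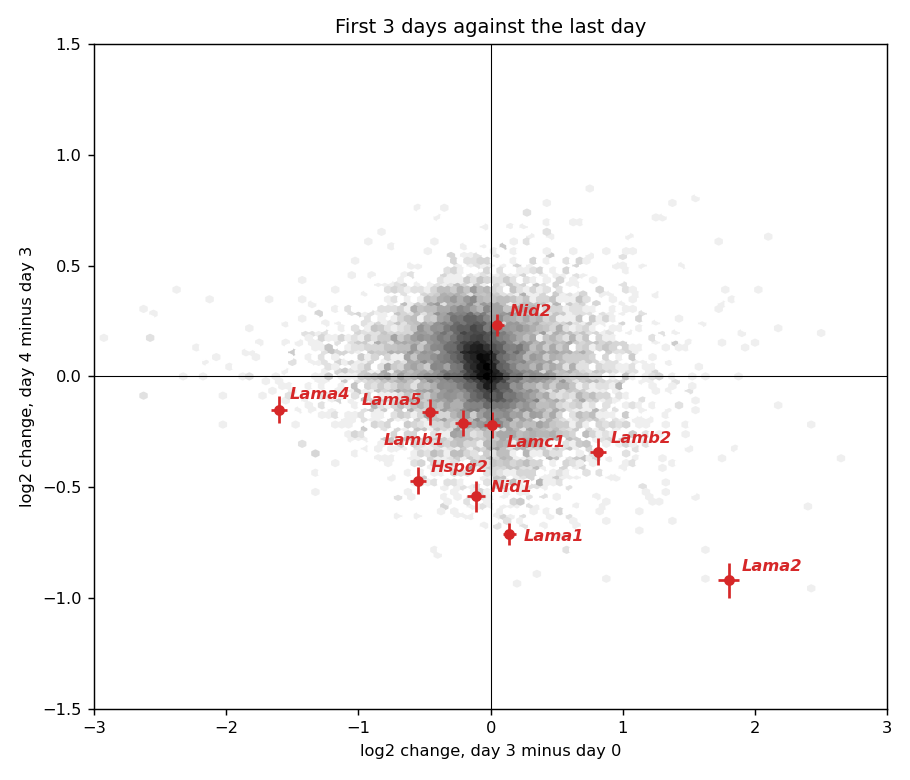
Log2 change over the first 3 days (day 3 minus day 0, horizontal axis) against the log2 change over the last day (day 4 minus day 3, vertical axis); grey cells hold all genes, darker for more genes on a log scale, red points are the 10 genes with bars for the SE, and 171 genes lie outside the axes. Lama2 (1.80 and −0.92) and Lamb2 (0.81 and −0.34) rose and then fell, Lama4 (−1.60 and −0.15) changed early, Nid1 (−0.11 and −0.54) and Lama1 (0.14 and −0.71) late, and Nid2 (0.05 and 0.23) alone of the 10 stands above 0 on the vertical axis.

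The day 3 arrays enter both axes of that plot with opposite sign, so no correlation is given. The comparison shows which genes changed when. Lama4 and Lama5 had most of their change at day 3, Lama1, Nid1, Lamc1 and Nid2 passed in the last step and not in the first, Hspg2 passed in both steps, and Lama2 and Lamb2 passed in both with opposite signs.

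Differences between 2 genes within an array show whether they changed unequally, whatever the scaling of the array. The level of one probe set cannot be set against that of another, so only the change of the difference is of use. Lamb1 minus Lamb2 stood at 0.95 ± 0.02 (SD, n = 2) at day 0, −0.08 ± 0.09 at day 3 and, at day 4, 0.05 ± 0.03, a change of −0.90 by day 4. For Nid1 minus Nid2 the value went from −0.23 ± 0.07 at day 0 to −0.38 ± 0.01 at day 3 and −1.16 ± 0.02 at day 4, a change of −0.93, of which −0.77 came on the last day. Both pairs thus changed unequally by more than the spread of the arrays. Among the α chains, Lama1 minus Lama2 changed by −1.66 at day 3 and Lama1 minus Lama4 by 1.74. Lama1 minus Lama5 changed by 0.60 at day 3 and was back within the spread of the arrays at day 4, with a change of 0.05 against day 0. Lama1 also fell against its usual partner Lamc1, by 0.49 on the log2 scale over the last day. Of the 27 such comparisons (9 pairs and 3 comparisons of days), 25 had no overlap between the arrays of the 2 days. The pairs share genes, so the 27 are not separate observations. The share over other gene pairs was not counted, and of single genes 73.0% had no overlap at day 4 versus day 0. The exact permutation test (two-sided, 2 against 2 arrays) gave p = 0.33 for each of these 25, the smallest it allows, and 0.36 after adjustment over the 27, so none could pass.

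Promoter sequences of GRCm38.p6 in RefSeq's table were at hand for 6 of the 10 genes, Lama2, Lama5, Lamb1, Lamb2, Nid1 and Hspg2, as the 250 bases before a transcript start. GGGCGG, the GC box bound by the Sp1 family, was searched on both strands, and 32.7% of 32851 such windows hold it. The box occurred 5 times in the window of Hspg2, 4 times in that of Lama5, 2 times in Lamb1 and 1 time in Nid1, all genes that were lower at day 4. It occurred 0 times in the windows of Lama2 and Lamb2, the 2 that rose by day 3. The windows are not alike. Of the 250 bases, those before the longest gene model were 1 for Lama2 and 103 for Lamb1. They were 198 for Hspg2, 205 for Lama5, 235 for Lamb2 and 250 for Nid1. The boxes of Lamb1 lie inside its gene model, as does 1 of the 4 boxes of Lama5, at 14 bases before the transcript start. The window of Lama2 is therefore almost all within the gene, and its count and GC content do not describe a region upstream of it. At least 4 boxes were found in 4.09% of all windows. The GC content was 70.0% for Hspg2 and 72.4% for Lama5 against 47.2% for Lama2 and 43.6% for Lamb2, with a median of 52.4% over all windows. Single arms of RA receptor sites, AGGTCA (14.0% of all windows) and GGTTCA (8.85%), occurred in 0 of the 6 windows. The same was true of AGATAA (9.99% of all windows), which is bound by Gata factors, and of the TATA box searched as TATAAA (12.4%). With 6 windows this is a description, and it says nothing of sites outside them. Shown, in the gene's 5′ to 3′ direction, are a gene that rose by day 3, one that fell in steps and one that fell on the last day, with GC boxes of either strand in capitals. The bases stop before the first base of the longest gene model, at chr9:108479612-108479846 (plus strand), chr4:137468553-137468750 (plus strand) and chr13:13437352-13437601 (plus strand).
Lamb2: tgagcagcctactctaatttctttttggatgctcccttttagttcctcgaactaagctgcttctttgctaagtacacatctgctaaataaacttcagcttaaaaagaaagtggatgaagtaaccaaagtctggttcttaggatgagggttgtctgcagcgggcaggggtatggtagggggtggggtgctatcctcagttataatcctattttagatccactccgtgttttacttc
Hspg2: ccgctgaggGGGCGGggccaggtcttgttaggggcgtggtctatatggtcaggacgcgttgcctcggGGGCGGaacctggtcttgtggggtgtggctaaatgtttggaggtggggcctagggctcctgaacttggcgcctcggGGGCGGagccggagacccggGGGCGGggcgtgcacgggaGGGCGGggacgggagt
Nid1: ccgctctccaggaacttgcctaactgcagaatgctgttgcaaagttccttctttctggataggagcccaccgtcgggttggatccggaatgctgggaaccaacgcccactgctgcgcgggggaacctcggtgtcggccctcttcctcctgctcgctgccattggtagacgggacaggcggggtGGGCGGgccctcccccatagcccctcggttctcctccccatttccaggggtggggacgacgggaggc

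Of the 3 further chain genes measured, Lama3, Lamb3 and Lamc3, which belong to skin and brain laminins, 0 passed against day 0 and 0 had an unadjusted p below 0.05 (Lama3 0.02, adjusted p = 0.774; Lamb3 −0.08, adjusted p = 0.536; Lamc3 0.19, adjusted p = 0.0985, limma). Lamc3 was higher, at 0.30, without day 0 replicate 2 (adjusted p = 0.0252) and with centring over all probe sets (adjusted p = 0.0128), and at 0.04 with centring over the genes tested (adjusted p = 0.686). At day 3 Lamb3 was lower by 0.30 (adjusted p = 0.0347).

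Collagen IV forms the second network of the membrane. Of 10 basement membrane collagen genes, 3 rose (25.9% of all genes), 2 fell (25.6%) and 5 did not pass at day 4, shares near those of all genes, with a median log2 change of 0.08 beside 0.00 for all genes. Col4a1 and Col4a2, which encode the chains of the common collagen IV and share a promoter region, fell by 0.82 and 0.79 on the log2 scale (SE 0.08 and 0.07). Col4a5, a chain of mature kidney membranes, rose by 0.77, Col18a1, which carries endostatin, by 0.74, and Col4a6 by 0.26, the last with an adjusted p of 0.0445 that was lost without day 0 replicate 1 (0.0983) or 2 (0.160), either day 3 array (0.0615) or day 4 replicate 2 (0.13, adjusted p = 0.210), with the 4 arrays of the 2 days alone (0.0615) and with centring over the genes tested (0.11, adjusted p = 0.328). Col7a1 (−0.02, adjusted p = 0.832) and Col15a1 (0.08, adjusted p = 0.289) did not pass. With centring over all probe sets, 7 of the 10 were higher and 2 lower, and with centring over the genes tested 2 and 2.

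Other glycoproteins of the membrane rose more often than they fell. Of 19 measured, 12 rose (25.9% of all genes), 2 fell (25.6%) and 5 did not pass at day 4, with a median of 0.47. Fras1, which encodes a protein that anchors the epidermis to the dermis in the embryo, rose by 2.23 (SE 0.05), Egflam, which encodes the dystroglycan ligand pikachurin, by 2.12, and Ntn1, which encodes the laminin-related guidance protein netrin-1, by 1.37. Ntn1 did so on the last day, by 1.20 from day 3 to day 4. Fbln2, which encodes fibulin-2, changed by −1.21 and Lad1, which encodes ladinin-1, by −0.46. Agrn, which encodes the heparan sulfate proteoglycan agrin, was at 0.10 (adjusted p = 0.139) and Hmcn1, which encodes hemicentin-1, at 0.04 (adjusted p = 0.659) at day 4. Both were higher at day 3, Agrn by 0.36 and Hmcn1 by 1.0, and both fell on the last day, by 0.26 and 0.95 on the log2 scale. The call of Agrn on the last day was lost with centring over all probe sets (−0.13, adjusted p = 0.0888) and without day 3 replicate 1 (adjusted p = 0.0592), and at day 4 Agrn passed with that centring (0.21, adjusted p = 0.0152).

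Among 13 genes of laminin and basement membrane receptors, 7 rose (25.9% of all genes), 2 fell (25.6%) and 4 did not pass at day 4 (median 0.23). Ddr1, a collagen receptor kinase, rose by 1.13, Itga3, whose α3β1 integrin binds laminins with α3 or α5 chains, by 0.88, and Itgb4, the β4 integrin of hemidesmosomes, by 0.67. Itga6, which encodes the α6 integrin of stem cells and epithelia, changed by −1.06 (SE 0.06) and Sdc1, which encodes syndecan-1, by −0.70. Itgb1, the β subunit shared by most laminin-binding integrins, was at 11.47 at day 0 and 11.57 at day 4 (0.10, adjusted p = 0.137), and Cd151, a tetraspanin that partners these integrins, was at 0.11 (adjusted p = 0.131). Both passed with centring over all probe sets (0.21 and 0.22) and with moderation that was robust and followed intensity (adjusted p = 0.0168 and 0.0206, limma), and both stood at −0.04 with centring over the genes tested.

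The sugar chains on which dystroglycan and perlecan depend were covered by a pair of lists. Of 9 enzymes that build the laminin-binding glycan of dystroglycan, 6 rose (25.9% of all genes), 2 fell (25.6%) and 1 did not pass at day 4 (median 0.46). B4gat1, which makes the primer of that glycan, rose by 1.43 (SE 0.05), the kinase gene Pomk by 1.04 and Pomgnt2 by 0.66, while Large2, which extends the glycan, changed by −0.94 and B3galnt2 by −0.50, and Rxylt1 was at 0.09 (adjusted p = 0.256). Of 17 enzymes of heparan sulfate, 11 rose (25.9% of all genes), 1 fell (25.6%) and 5 did not pass at day 4 (median 0.36). Hs6st1, a sulfotransferase gene, rose by 1.5, Sulf1, which removes the same sulfate groups outside the cell, by 1.27 and the polymerase subunit gene Ext2 by 0.81. Hs6st2 changed by −0.54, and Ext1 (0.02, adjusted p = 0.770) and Hs3st3b1 (−0.05, adjusted p = 0.660) did not pass.

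Enzymes and inhibitors that remodel matrix held the widest range. Of 13 genes, 10 rose (25.9% of all genes), 1 fell (25.6%) and 2 did not pass at day 4 (median 0.77). Plat, which encodes tissue plasminogen activator, rose by 4.24 (SE 0.13), the protease gene Adamts1 by 2.90 and the metalloprotease inhibitor gene Timp3 by 2.38. Mmp9, which encodes a gelatinase that also cleaves collagen IV, changed by −2.87 (SE 0.06) and had a mean below 6 at day 3 (5.99) and day 4 (5.81), so its fall may be understated. Ctsl (−0.02, adjusted p = 0.806) and Mmp3 (0.08, adjusted p = 0.393) did not pass, and Mmp3 was dim on all 3 days (4.56 to 4.75).

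With centring over the genes tested, the counts of genes that rose and fell at day 4 were 2 and 2 for the collagens, 10 and 4 for the other glycoproteins, 5 and 4 for the receptors, 5 and 2 for the dystroglycan enzymes, 10 and 2 for the heparan sulfate enzymes and 9 and 2 for the remodelling genes.

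**Figure D3:**
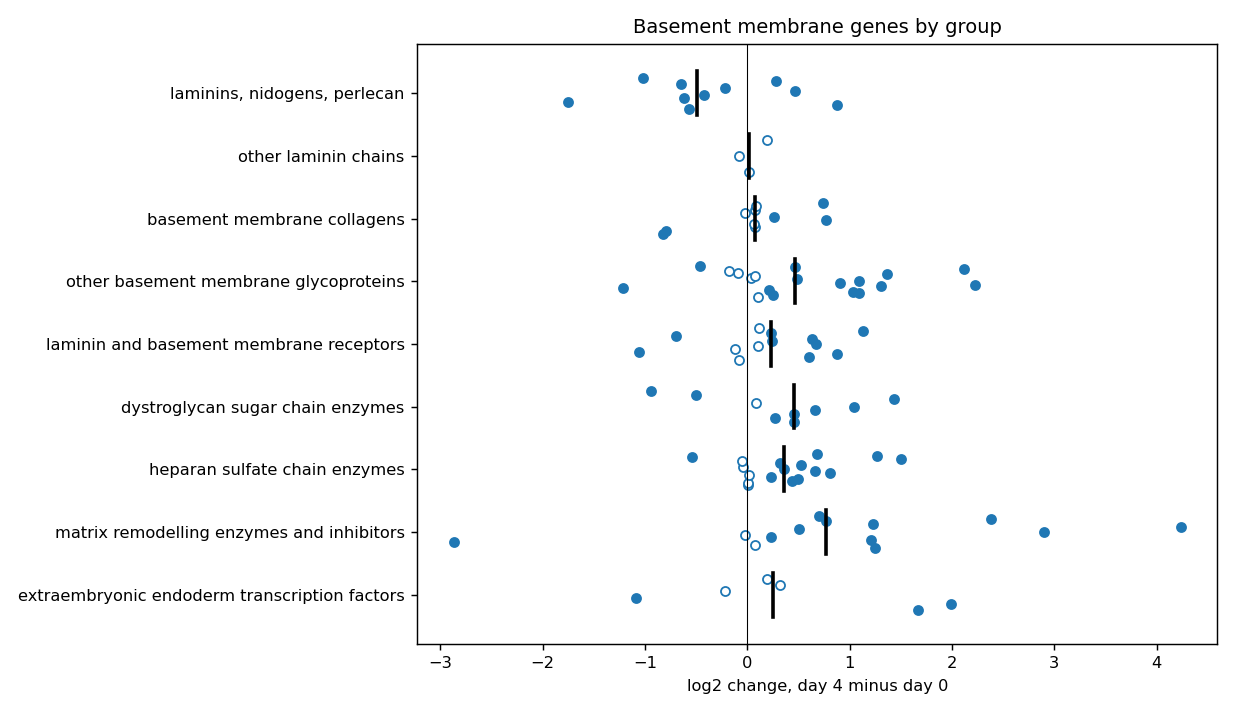
Log2 change at day 4 minus day 0 (horizontal axis) of each gene in 9 groups (vertical axis; the height of a point within its group has no meaning); filled circles passed the test (adjusted p of 0.05 or below), open circles did not, and black bars are the medians of the groups. The median of the laminins, nidogens and perlecan is −0.50, that of the matrix remodelling genes 0.77 and that of the other glycoproteins 0.47.

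The endoderm that lays down much of the early basement membrane was followed by its transcription factors and by marker genes. Gata6 rose by 1.99 and Gata4 by 1.67 at day 4, both by day 3 already (1.95 and 1.77), Sox7 changed by −1.09, and Sox17 (−0.22, adjusted p = 0.0709) and Hnf4a (0.19, adjusted p = 0.310) did not pass. Sox17 passed without day 0 replicate 2 (−0.35, adjusted p = 0.00863) and with centring over the genes tested (−0.37, adjusted p = 0.00734). Of these 6 genes, 2 rose, 1 fell and 3 did not pass. Beside these and the marker counts that follow, 25.9% of all genes rose and 25.6% fell at day 4. Of 10 markers of parietal endoderm, which makes Reichert's membrane, 6 rose and 4 fell at day 4. Their summed linear intensity was 14100 to 14400 at day 0, 21700 at day 3 and 23500 at day 4. Most of the sum at day 0 was Sparc (12.97), so the sum follows a few bright genes. The median log2 change of the list was 0.07 at day 3 and 0.35 at day 4. Plat and the RA-inducible gene Stra6 (3.00) had the largest rises and Fst (−2.37) the largest fall, and the first-listed marker Thbd rose by 0.45. Gata6, Plat, Sparc, Col4a1 and Col4a2 stand in this list and in one of the lists above. Of 10 visceral endoderm markers, 5 rose, 3 fell and 2 did not pass, with a sum of 5480 to 5790 at day 0, 5300 to 5810 at day 3 and 5030 to 5100 at day 4. Most of that sum was Apoe (12.00 at day 0), and the mean log2 level of the list was 7.34 to 7.42, 7.61 to 7.79 and 7.63 to 7.67. Afp was dim on every day (5.48 to 5.85). Dab2, an endocytosis adaptor gene, and Apoa1, a lipoprotein gene, rose by 1.58 each, Ttr, which encodes the carrier of thyroid hormone and retinol, by 0.59, and Apoe changed by −1.25. The part of these cells in the changes above was not tested.

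The red cell markers and 6 of 8 endothelial markers had their highest mean at day 3, as Lama2 and Lamb2 did. Lama1 and Lamc1 did too, but by 0.14 and 0.01 over day 0, which did not pass. Lama4, the chain of vessel and mesenchymal membranes, went the other way, from 9.42 at day 0 to 7.82 at day 3. The share of all genes with their highest mean at day 3 was not counted, so these matches of days cannot be weighed. Of 8 endothelial markers 6 were higher and 1 was lower at day 3, and 4 were lower and 0 higher on the last day. Of all genes, 23.8% were higher and 28.1% lower at day 3, and 12.2% were lower and 15.8% higher on the last day. Their sum was 5460 to 5720 at day 0, 8020 to 8650 at day 3 and 7010 to 7250 at day 4, with Pecam1 at 8.71, 9.39 and 9.27 and Cdh5 at 10.59, 11.09 and 10.81. Emcn, a sialomucin gene of endothelium, rose by 4.75 at day 4, Cldn5 by 1.53, and Tek, a receptor gene, changed by −1.14. Tek and Kdr, which encodes a receptor of vascular endothelial growth factor, were highest at day 0, and Kdr was the marker that was lower at day 3 (−0.94). Of 4 red cell genes all 4 were higher at day 3 and lower on the last day, with a sum of 903 to 1070, then 20300 to 22700, then 5520 to 6440. The embryonic globin gene Hba-x rose by 6.11 at day 3 and then fell by 1.58, Hbb-y rose by 6.10 and fell by 1.85, and Hbb-bh1 rose by 3.08 and fell by 2.40 on the log2 scale. Of 7 markers of heart and skeletal muscle, the tissue best known for Lama2, 1 rose, 1 fell and 5 did not pass at day 3, with sums of 1140 to 1240 over all 6 arrays. Myh6 (5.99, 5.90 and 5.98 at the 3 days) and Myh7 (6.65, 6.45 and 6.66), both genes of heart myosin, were dim. At day 4 Tnnt2 was higher by 0.79, Actn2 lower at −1.09 and Des lower at −0.18. The part of vessel and red cells in the courses of Lama1, Lama2, Lama4, Lamb2 and Lamc1 was not tested. In RNA of whole EBs fewer cells of a type and less RNA per cell cannot be told apart.

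**Figure D4:**
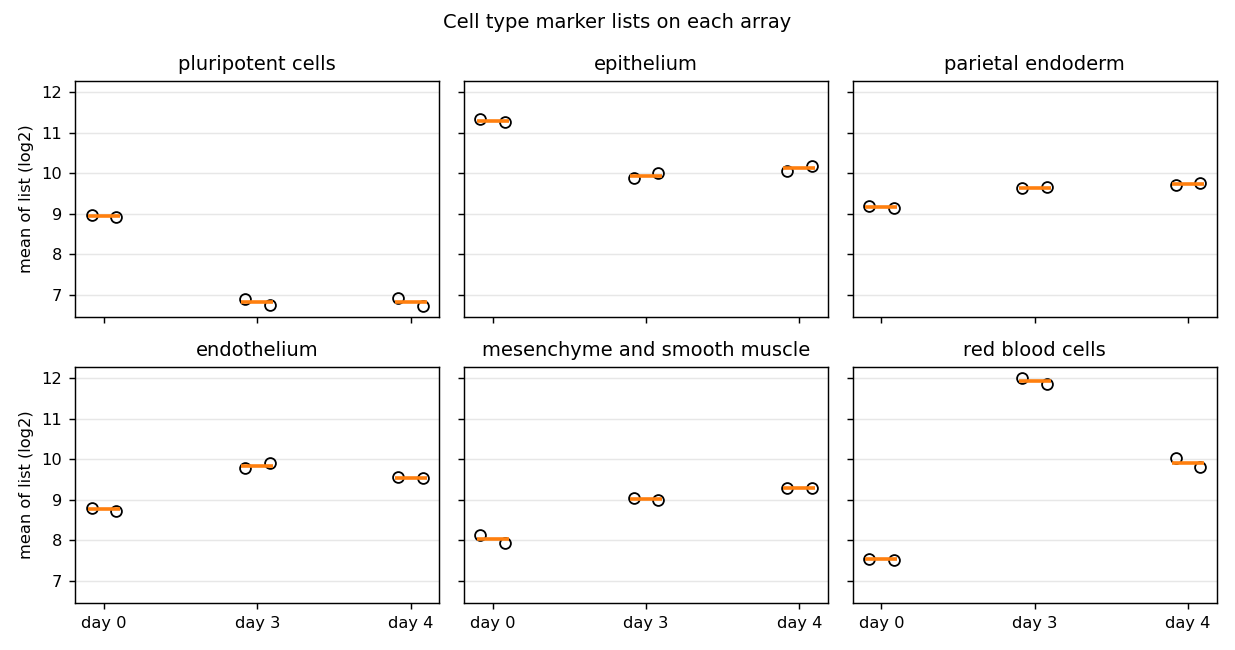
Mean log2 intensity (vertical axis) of 6 lists of cell type markers on each array at day 0, day 3 and day 4; open circles are the 2 arrays of a day and bars their means. The red cell list stood at 7.51 to 7.55, 11.85 to 12.01 and 9.80 to 10.03, and the epithelial list fell from 11.26 to 11.33 at day 0 to 9.87 to 10.01 at day 3.

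Of the 5 epithelial markers 4 had their highest mean at day 0, as Lama5, Lama4, Hspg2, Lamb1 and Nid1 did. The share of all genes with their highest mean at day 0 was not counted, so this match of days cannot be weighed. All 5 were lower at day 3 (28.1% of all genes), and 4 were lower (25.6%) and 1 higher (25.9%) at day 4. Their sums were 17700 to 18500, 6530 to 7110 and 7650 to 7940. Cdh1, which encodes E-cadherin, changed by −2.25 at day 4, Krt8 by −1.61, Krt18 by −1.48 and Epcam by −0.79. Krt19, a keratin gene, was the marker that was higher at day 4 (0.25, adjusted p = 0.0282, limma). Of 9 genes of mesenchyme and smooth muscle, 5 rose, 3 fell and 1 did not pass at day 4, with sums of 6180 to 7280, 9050 to 9330 and 10500 to 10800. Postn rose by 4.53, Dcn by 3.15 and Col3a1 by 2.28, while Acta2 rose by 0.71 and Tagln changed by −0.85. Of 6 neural and glial markers, 1 rose, 2 fell and 3 did not pass at day 4, with sums of 3080 on both day 0 arrays, 1940 to 1970 at day 3 and 2420 to 2430 at day 4. Fabp7 changed by −0.73 and Tubb3 by −0.38, Pax6 rose by 0.36, and Sox1 was at 0.12 (adjusted p = 0.173). The part of epithelial, mesenchymal and neural cells in the changes above was not tested.

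Genes with the most similar course were sought for the 2 genes that rose most at day 4 and the 2 that fell most, by the Euclidean distance over the 4 later arrays after each gene's day 0 mean was subtracted, among 17063 other genes. Nearest to Lama2 were Frem1 (distance 0.21), from the list of other glycoproteins, the endothelial gene Plvap (0.26) and Spaca6 (0.27). Frem1 changed by 1.74 at day 3 and 0.91 at day 4, against 1.80 and 0.88 for Lama2. Nearest to Lamb2 were Dync1li2 (0.08), Tnrc18 (0.09) and the histone demethylase gene Kdm5b (0.12). Nearest to Lama4 were Gem (0.10), the lactate transporter gene Slc16a1 (0.11) and Shank3 (0.13), and nearest to Hspg2 were Daam1 (0.08), Flvcr1 (0.09) and Nup214 (0.09). Frem1 was the 1 gene of the basement membrane lists among these 12, and those lists hold 90 genes beside the 17063 compared.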

How the data were processed

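Expression was measured on 6 arrays, 2 each at day 0, day 3 and day 4, and groups were taken from the sample titles. The authors normalised Affymetrix Mouse Gene 1.0 ST arrays by RMA in Partek, and the deposited table holds log2 intensity per probe set; the software version and genome build for the arrays are not given in the sources used here. RMA equalises the array distributions, and a change is thus measured against all other transcripts. Of 35557 probe sets, 21789 had 1 gene symbol, 1621 had several and 12147 were unnamed here. The brightest single-symbol probe set per gene gave 19938 genes (999 had several), and each of the 10 members had 1 probe set.

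All 6 arrays were fitted together with limma 3.58.1 in R 4.3.3 (lmFit and eBayes, 3 residual and 4.07 prior degrees of freedom), with a mean per day. Tests were two-sided, with Benjamini-Hochberg adjustment over the whole table and calls at 0.05. Tests were checked on simulated data. Precision is limited by the number of arrays. The members and lists were chosen with earlier results of these data known. Named list genes were the up to 3 largest rises and falls at day 4 that passed and up to 2 bright genes that did not. From marker lists they were the 3 largest changes and the first 2 genes. Lama3, Kdr, Krt19 and the values of list genes at day 3 and over the last day were chosen after they were seen. Promoters came from RefSeq's GRCm38.p6 table.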

Additional observations from a re-analysis of the deposited data

How the results depend on the processing

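Of 420 values of the 10 genes under 14 other settings, 391 kept their direction and side of the threshold, 25 lost their call, 4 gained one, and 0 changed sign while called. The losses were those of Lamb1, Lamc1 and Nid2. The settings were 2 kinds of centring, cyclic loess, a filter on dim genes, an intensity trend with robust moderation, the 4 arrays of 2 days alone, the replicate block, the mean of all probe sets and leaving out each array. They are not 14 separate checks. Each of the 10 genes had 1 probe set, so the mean of all probe sets could not change its values. Leaving out an array of the day not compared is the same fit as the 4 arrays alone. The 391 thus include repeated and fixed outcomes. Centring on the genes tested was added after seeing the data. Requiring a 2-fold change as well left 0 higher and 2 lower of the 10 at day 4 versus day 0, 1 and 1 at day 3, and 0 and 0 for the last day, and over all genes 1160 and 920, 1025 and 815, and 75 and 78. With centring over all probe sets, 8829 genes were higher and 1381 lower over the last day, and with centring on the genes tested 8521 were lower at day 4 and 8495 at day 3 versus day 0. These moves follow from the shift of the zero line.

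Leaving out 1 array gave 6 to 7 lower and 3 higher of the 10 at day 4 versus day 0, 3 to 4 lower and 2 higher at day 3, and 5 to 6 lower and 0 to 1 higher over the last day, where all genes ranged from 1355 to 2998 higher and 1370 to 2278 lower. A day left with 1 array was assumed to vary like the others. The difference of Lama1 and Lama5 at day 4 versus day 0 changed sign without day 0 replicate 1 (−0.02 to 0.11 over the arrays left out), and that of Lamc1 and Lamb1 over the last day without day 3 replicate 1 or day 4 replicate 2 (−0.04 to 0.01). Hmcn1, with 77 probe sets, rose by 0.79 at day 3 as their mean.

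Samples with the same replicate number did not deviate together (correlations of 0.03, 0.06 and 0.08), so the number was not treated as a pairing. With it as a block, 6 of the 10 were lower over the last day in place of 7, since Lamb1 lost its call (adjusted p = 0.0552, limma), and over all genes 5469 in place of 5593 passed. Of 672 counts of the basement membrane lists under other settings, 75 moved by more than 1.5 times.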
